A study of Mus musculus with 221 samples.

Results

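A set of 7 genes of venous and scavenger endothelium, Lyve1, Stab1, Stab2, Mrc1, Nr2f2, Ephb4 and Aplnr, were followed through long-read transcriptomes of single mouse cells on their way from endothelium to blood. They were picked out by gene symbol, with earlier results of these data known. They are 7 of the 78001 gene symbols in the table, with 37 annotated transcripts. Haemogenic endothelium (HE) is the endothelium that gives rise to blood cells in the embryo. Complementary DNA of sorted single cells, made by a Smart-seq2 protocol, was sequenced on a nanopore instrument, in which a read can span a whole transcript. The series asks how HE of the aorta-gonad-mesonephros region (AGM) and HE of the yolk sac (YS) differ in genes and isoforms.

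All embryos came from Gfi1-GFP and Runx1b-RFP reporter males crossed with ICR (CD-1) females, and no knockout or treatment was compared. AGM cells were sorted as RUNX1+, KIT-, CDH5+, CD41- and CD45-, and YS cells as RUNX1+, KIT+, CD31+, CD41- and CD45-, with or without GFI1 in both tissues. The sorts therefore differ in KIT between the tissues, and none of the 7 genes was used in a sort. HE-AGM comprised cluster c3 (early) and c4 (late). HE-YSA, the arterial yolk sac HE, comprised a1 (early) and a2 (late), and HE-YSP, the HE of the yolk sac plexus, b2 (early) and b3 (late). Another AGM cluster, c5, follows c4, while p1 and p2 are early YS progenitors labelled as skewed to a lympho-myeloid and to an erythro-myeloid fate. AGM cells were taken at E9.5 and E10.5 and YS cells at E9.0, E9.5 and E10.5, where E is the embryonic day.

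Only cells with totals of 17595 estimated counts or more were used, which kept 208 of 221 cells, with 29 in c3, 20 in c4, 21 in c5, 23 in a1, 29 in a2, 25 in b2, 24 in b3, 17 in p1 and 20 in p2. Totals per cell ranged from 18131 to 125339, and HE-AGM cells, with a median of 59311, were deeper than HE-YSA (34483.5) and HE-YSP cells (33297). Because each sample is 1 cell and no embryo is named, each cluster counts as 1 sample. No test was made, and the differences have no replicate check. Levels are summed estimated counts per 1000000 of the summed totals (CPM), with 95% exact Poisson intervals, and shares of cells carry 95% exact binomial intervals. These intervals cover counting error only. A gene was called found in a cell at 1 estimated count or more. Levels are not corrected for length, so they are compared for the same gene between clusters and not between genes. The study drew its clusters from short reads of the same complementary DNA, these genes included, so differences between clusters are given as a description. Most AGM and YS cells came from different cDNA projects, so that tissue, KIT sort and project cannot be told apart. Of the AGM cells used, only 1 c3 cell had its embryonic day given, so comparisons with the AGM could not be matched for stage. Of the cells used, 3 carried a library name or project of the other tissue, and 0 pairs of nanopore run and barcode were used more than once.

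Scavenger receptors are surface proteins with which sinusoidal and lymphatic endothelium, and many tissue macrophages, take up and degrade waste molecules from the circulation. LYVE1 binds hyaluronan, the stabilins STAB1 and STAB2 clear modified proteins, and STAB2 is also a hyaluronan clearance receptor, while MRC1 is the mannose receptor. Venous identity in endothelium is set by the nuclear receptor NR2F2 (COUP-TFII), is marked by the receptor tyrosine kinase EPHB4, whose ligand ephrin-B2 marks arteries, and is accompanied by APLNR, the receptor of the peptides apelin and ELA.

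All 4 scavenger receptor genes had their highest level in the early plexus cluster b2, with Lyve1 also high in b3 and Stab1 spread over the AGM as well, whereas the venous regulator Nr2f2 was all but absent from every cluster. Over the 208 cells Nr2f2 had 6 counts in all, too few to mark any of the 9 clusters as venous, and the genes are named singly below. The cell plot gives every value.

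**Figure D1:**
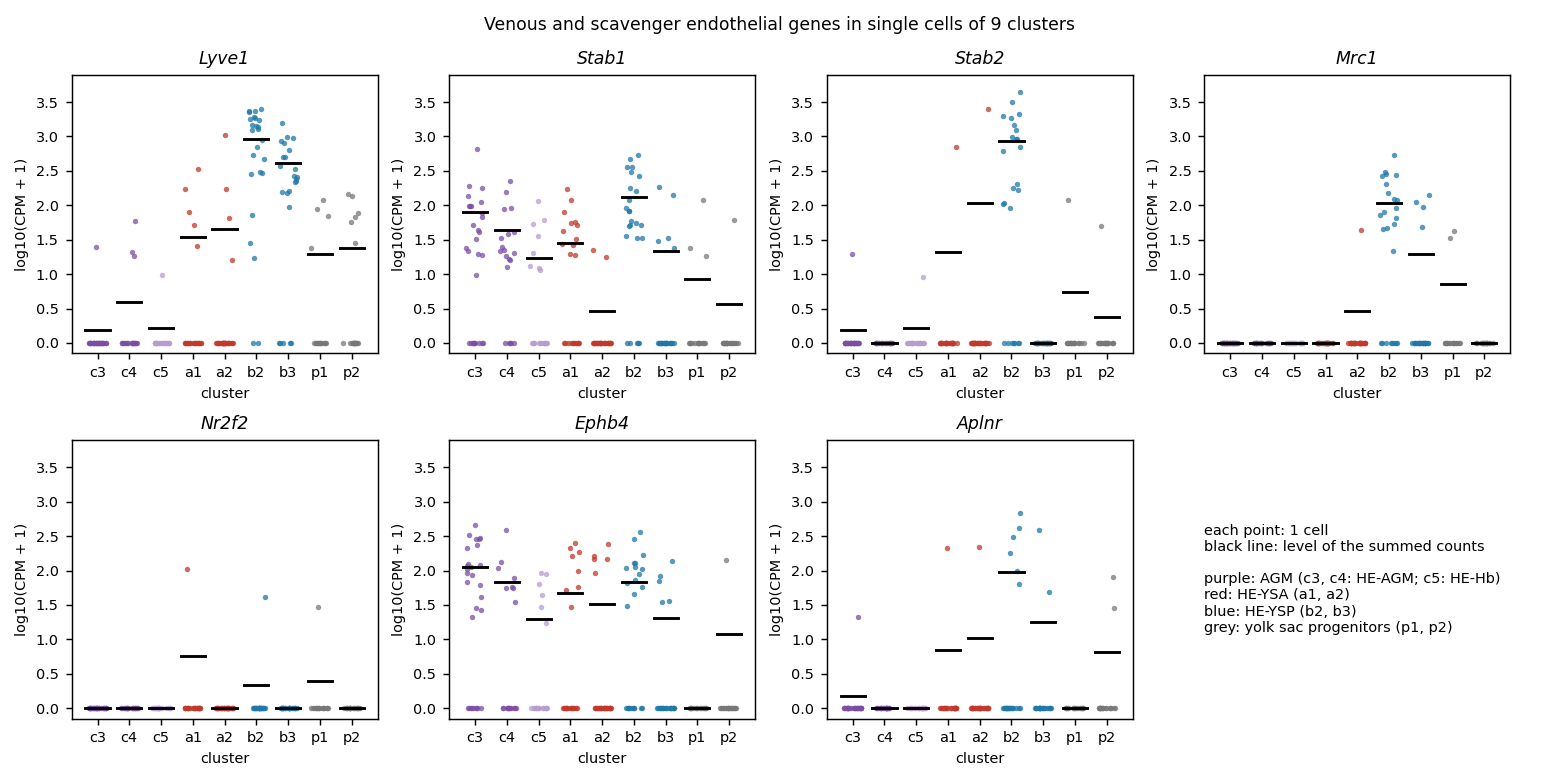
Each panel plots 1 gene, with the clusters on the x axis and the level per cell, log10(CPM + 1), on the y axis; points are single cells spread sideways for view, and black lines the level of the summed counts. Lyve1 was found in 23 of 25 b2 and 19 of 24 b3 cells, Stab2 in 18 of 25 b2 and 0 of 24 b3 cells, and Nr2f2 in 3 cells in all.

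Reads of Lyve1, Stab2 and Mrc1 were assigned in large part to short transcripts without a defined or full coding sequence, and the ends of those transcripts show how they differ from the full ones. The coordinates are those of GENCODE M21 on GRCm38, in which all 37 transcripts were matched by identifier and length. Stab2 lies at chr10:86841198-87008025 on the minus strand. Its transcript Stab2-204, of 523 bases and with no defined coding sequence, shares its first 3 exons with the coding transcript Stab2-201, which has 69 exons and 8228 bases. Stab2-204 then ends in a last exon of 37 bases of its own at chr10:86990829-86990865, 149631 bases before the end of Stab2-201. Lyve1 lies at chr7:110850607-110863239 on the minus strand. Lyve1-202, of 802 bases and annotated as a retained intron, runs 26 bases past the end of exon 4 at chr7:110853671-110853696 and stops there, 3064 bases before the end of the coding Lyve1-201, which has 2893 bases and 6 exons. In the following lines, read 5′ to 3′ on the minus strand, lower case marks the last 40 bases before the exon boundary of the full transcript. Capitals mark what follows in each transcript, and the first capitals of each pair match in sequence as well. The lines are shown because the annotated transcripts part at this boundary. Of the bases of Stab2-204, 486 come before its own end, and of those of Lyve1-202, 776, so that a partial read of shared exons can also be assigned to them. Whether reads reached the ends in capitals was not tested.
Stab2-204, last exon: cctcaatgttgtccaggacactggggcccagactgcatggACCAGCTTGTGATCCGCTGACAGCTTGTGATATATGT
Stab2-201, start of exon 4: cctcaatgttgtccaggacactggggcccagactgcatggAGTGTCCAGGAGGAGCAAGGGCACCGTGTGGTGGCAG
Lyve1-202, past exon 4: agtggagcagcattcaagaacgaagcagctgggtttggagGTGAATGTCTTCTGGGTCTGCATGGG
Lyve1-201, start of exon 5: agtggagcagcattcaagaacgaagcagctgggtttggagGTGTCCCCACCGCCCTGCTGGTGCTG

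Lyve1, the hyaluronan receptor of lymphatic and sinusoidal endothelium, had its highest level in b2, at 911 CPM (interval 848 to 977), followed by b3 at 414 CPM (371 to 461). The b2 cells ran from 0 to 2534 CPM with a median of 1228, and the b3 cells from 0 to 1579 CPM with a median of 246. Lyve1 was found in 92.0% of b2 cells and in 79.2% of b3 cells, so most cells of both plexus clusters held it, and the 2 clusters overlapped cell by cell.
In the arterial clusters the level was 33.3 CPM in a1 (22.1 to 48.1) and 44.1 CPM in a2 (32.4 to 58.7), and Lyve1 was found in 5 of 23 and 4 of 29 cells. A single cell held 64.3% of the a1 counts and another held 76.6% of the a2 counts, at 1042 CPM, and without these the levels were 12.7 and 10.7 CPM. Progenitor clusters had 18.3 CPM (p1, 4 of 17 cells) and 23.2 CPM (p2, 6 of 20 cells). The AGM clusters lay at the other end of the order, with 0.516 CPM in c3, 2.88 in c4 and 0.662 in c5, from 1, 4 and 1 counts. The intervals of a1 and a2, of p1 and p2, and of the 3 AGM clusters overlapped within each set, while those of b2 and b3 did not.
Summed over populations, 42 of 49 HE-YSP cells held Lyve1 (85.7%, 72.8 to 94.1), against 9 of 52 from HE-YSA (17.3%) and 4 of 49 from HE-AGM (8.16%). The AGM cells were the deeper ones, and with each cell thinned to 17595 counts the expected numbers were 40.4 HE-YSP, 7.06 HE-YSA and 1.83 HE-AGM cells. Across nanopore runs 1, 2 and 3 the HE-YSP level was 551.5, 895 and 611 CPM.

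Stab2, the hyaluronan clearance receptor gene, separated the early from the late plexus cluster by a larger fold than the other 5 genes with enough counts for a ratio. In b2 it reached 850 CPM (789 to 914), with 18 of 25 cells holding it, a median of 204 CPM and a highest cell at 4419 CPM. In b3 it had 0 counts in 24 cells, which allows up to 3.65 CPM at 3 counts. Stab2 was thus at least 232-fold lower in b3 than in b2.
Outside b2, Stab2 was found in 1 cell each of c3, c5, a1, a2, p1 and p2 and in none of c4. The a1 cell held 17 counts and the a2 cell 114 counts, at 2473 CPM, a level inside the range of b2. Other HE-YSA cells had no Stab2 count, so the cluster levels of 20.2 CPM in a1 and 107 CPM in a2 each describe 1 cell. Counts in the other clusters were 1 in c3, 1 in c5, 3 in p1 and 1 in p2. Without the a2 cell the HE-YSA level was 9.14 CPM in place of 68.7 CPM.

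Stab1, the other stabilin, was spread more widely and was the only scavenger receptor gene of the 4 with a level of the AGM similar to that of the plexus. The b2 level was 129 CPM (106 to 156), with 20 of 25 cells holding it and a median of 58.9 CPM. In b3 it was 20.7 CPM (12.1 to 33.2), found in 5 of 24 cells.
In the AGM it was 77.6 CPM in c3 (65.5 to 90.8), 42.4 in c4 (32.3 to 54.7) and 15.9 in c5 (10.2 to 23.7), found in 19 of 29, 15 of 20 and 8 of 21 cells. One c3 cell, at 661 CPM, held 45.2% of the c3 counts, and the level without it was 44.9 CPM, which lies inside the interval of c4. In the arterial clusters it was 27.4 CPM in a1 (17.3 to 41.1) and 1.88 CPM in a2 (0.227 to 6.78), and in the progenitors 7.62 CPM in p1 and 2.73 CPM in p2.
At the population level Stab1 was found in 34 of 49 HE-AGM cells and 25 of 49 HE-YSP cells. After each cell was thinned to 17595 counts, the expected numbers were 20.4 and 20.5 cells, so that the higher share in the AGM was not seen at equal depth.

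Mrc1, the mannose receptor gene, was found in 17 of 25 b2 cells at 108 CPM (87.2 to 133), with a median of 65.4 CPM and a highest cell at 539 CPM. In b3 it was found in 4 of 24 cells at 18.3 CPM (10.2 to 30.1). Elsewhere it was found in 2 p1 cells and 1 a2 cell, and in 0 cells of c3, c4, c5, a1 and p2. The 0 counts over 49 HE-AGM cells allow up to 0.901 CPM at 3 counts.

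Cells of b2 often held several of the 4 scavenger receptor genes. All of Lyve1, Stab1, Stab2 and Mrc1 were found in 13 of 25 b2 cells, 3 of the 4 in 6 cells, 2 in 3 cells, 1 in 2 cells and none in 1 cell. The set of 4 was found in 0 of 24 b3 cells, in 1 of 29 a2 cells and in 0 cells of the other 6 clusters. Every b2 cell with Stab2 also held Stab1. The levels of the genes did not all move together within b2. Spearman's rho over its 25 cells was 0.55 for Stab1 and Mrc1, 0.42 for Stab1 and Stab2, 0.36 for Stab2 and Mrc1, and -0.21 for Lyve1 and Stab2. The cells share libraries and differ in depth, and these values are given as a description.

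**Figure D2:**
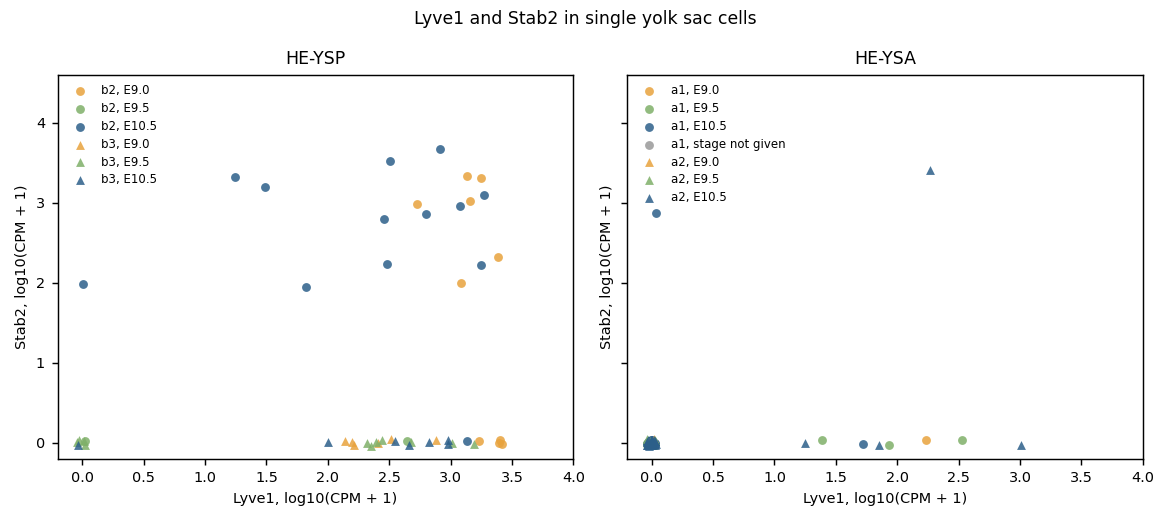
Each point is 1 yolk sac HE cell, with Lyve1 on the x axis and Stab2 on the y axis, both as log10(CPM + 1), offset slightly so that cells at 0 can be told apart; colour gives the stage and shape the cluster. All 24 b3 cells lie at 0 on the Stab2 axis while 19 of them hold Lyve1, and 2 of the 52 HE-YSA cells lie above 0 on the Stab2 axis.

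The a2 cell with the full set held 6 of the 7 genes, with 8 counts of Lyve1, 1 of Stab1, 114 of Stab2, 2 of Mrc1, 11 of Ephb4 and 10 of Aplnr. It is an E10.5 cell of run 1, picked here for its values. Its summed level of 27 other genes of the study's yolk sac endothelium signature was 304 CPM, rank 5 of 29 in a2, above the a2 median of 96.2 CPM and below the HE-YSP median of 1601 CPM. Its summed level of the study's 20 arterial signature genes was 564 CPM, beside a median of 479 CPM in a2 and 71.6 CPM in HE-YSP. Both HE-YSA cells with Stab2 came from the same cDNA plate, whose 4 HE-YSP cells held 207 Stab2 counts. Whether a doublet or carried-over cDNA plays a part was not tested.

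Nr2f2, the venous nuclear receptor, had 4 counts in 1 a1 cell, 1 count in 1 b2 cell and 1 count in 1 p1 cell. The a1 cell is one of the cells with AGM in the library name, and without it HE-YSA would hold no Nr2f2 count. The other 6 clusters were at 0, and the 0 counts over HE-AGM allow up to 0.901 CPM at 3 counts. Nr2f2 had under 20 counts in each pair of populations, so that no ratio was taken.

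Ephb4, the venous receptor for ephrin-B2, was found in 8 of the 9 clusters and had its highest level in the AGM. It was at 111 CPM in c3 (97.0 to 127), 66.2 in c4 (53.3 to 81.1) and 18.5 in c5 (12.3 to 26.8), found in 20 of 29, 8 of 20 and 6 of 21 cells. In the plexus it was at 67.0 CPM in b2 (50.7 to 86.8) and 19.5 CPM in b3 (11.1 to 31.7), found in 14 of 25 and 5 of 24 cells. In the arterial clusters it was at 46.4 CPM in a1 (33 to 63.4) and 31.9 CPM in a2 (22.1 to 44.6). The intervals of b2, c4 and a1 overlapped, as did those of a1 and a2.
The progenitors were lowest, with 0 counts in the 17 cells of p1 and 8 counts in 1 of the 20 cells of p2. In c4 a single cell held 53.3% of the counts, and the level was 34 CPM without it. Efnb2, which encodes ephrin-B2, had 141 CPM in HE-AGM against 45.1 CPM for HE-YSA and 10.2 CPM for HE-YSP, and was at 0 in b3. Receptor and ligand therefore both had their highest level in HE-AGM.

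Aplnr, the apelin receptor gene, was found in few cells. In b2 it was at 94.0 CPM (74.5 to 117) with 6 of 25 cells holding it and a highest cell at 690 CPM. In b3 it was at 17.1 CPM, but 1 of its 2 cells held 85.7% of the counts, and the level without that cell was 2.53 CPM. It was found in 1 cell each of c3, a1 and a2 and in 2 cells of p2, and had 0 counts in c4, c5 and p1. Its ligand gene Apln had 2.40 CPM (HE-AGM), 1.57 CPM (HE-YSA) and 0.598 CPM (HE-YSP), and Apela, encoding ELA, had 0 counts in all 9 clusters. The receptor was thus detected in plexus cells whose own ligand transcripts were at or near 0.

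The comparison of HE-YSP with HE-YSA asks how the 2 HE populations of the yolk sac differ. They also differ in stage, since 10 b2 and 6 b3 cells but only 1 a1 and 1 a2 cell were of E9.0. Over the alternative settings, among them E10.5 yolk sac cells alone, the log2 ratio of Lyve1 was at least 3.33. Of the 7 genes, 6 had at least 20 counts over both populations, the limit for taking a ratio, and 5 of these 6 were at least 2-fold higher in HE-YSP, beside 9.71% of the 9805 genes over that limit. The 7 genes were not chosen blind to such results, and the study itself had picked Lyve1 as a plexus marker by its expression. The log2 ratio was 4.08 (3.74 to 4.44) for Lyve1, 2.53 (1.91 to 3.21) for Stab1 and 2.84 (2.04 to 3.73) for Aplnr. For Mrc1 it was 5.93 (4.04 to 8.99), from 107 counts against 2. For Stab2 it was 2.65 (2.38 to 2.93), and 5.56 without the a2 cell that holds most of the HE-YSA counts. Leaving out the highest HE-YSA cell also moved Lyve1 to 5.00 and Aplnr to 4.39. In runs 1, 2 and 3 alone the ratio was 3.66, 3.50 and 6.01 for Lyve1 and 1.78, 4.19 and 5.36 for Stab2, the run 3 value of Stab2 being a bound against 0 counts. Within the 3 cDNA plates that held at least 4 cells of both populations, Lyve1 was at 3.33, 6.86 and 3.51 and Stab1 at 2.66, 3.34 and 5.94. Stab2 was at 1.64 in the plate with the pair of HE-YSA cells, and at 5.45 and 6.75 in the others, both bounds. Mrc1 was at 4.22, 1.72 and 4.84 and Aplnr at 2.30, 2.13 and 3.56, the last 2 values being bounds for each. These 5 genes were thus at least 2-fold higher in HE-YSP in each of the 3 plates. For Ephb4 the plates gave -0.48, a bound of 2.03 and 0.10. Ephb4, at 0.19 (-0.30 to 0.68), was the member without a 2-fold difference.

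**Figure D3:**
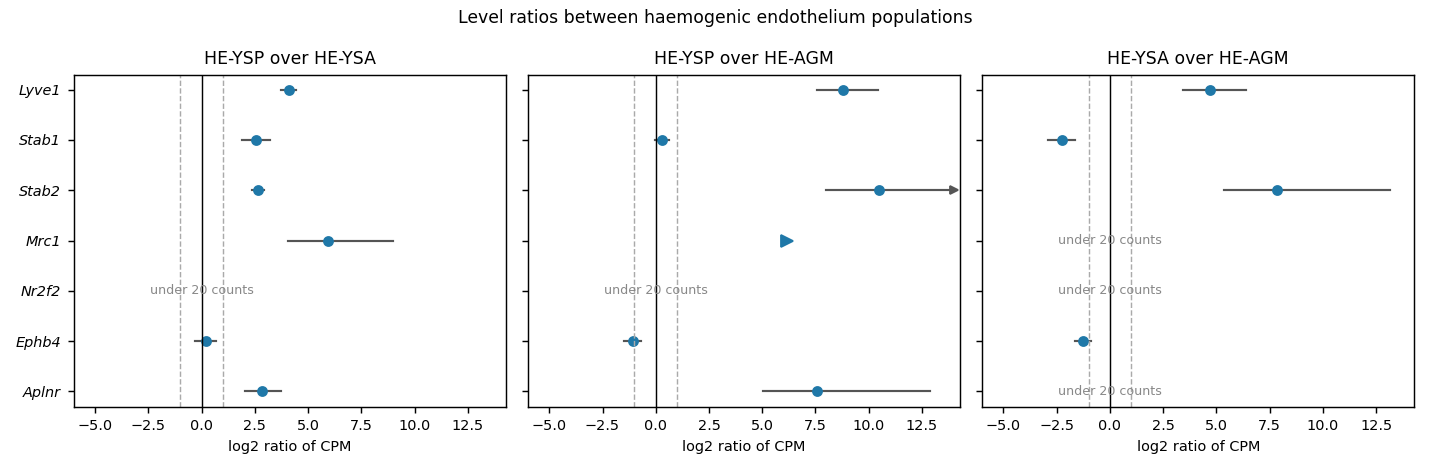
Log2 ratios of CPM (x axis) for the 7 genes (y axis) in 3 pairs of populations, with points for ratios, lines for 95% counting intervals, dashed lines at a 2-fold difference and triangles for bounds against a population at 0 counts. Lyve1, Stab2, Mrc1 and Aplnr lie to the right of 2-fold in both panels with HE-YSP, and Ephb4 lies at 0.19 and -1.08.

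Against HE-AGM, 4 of 6 genes were at least 2-fold higher in HE-YSP, beside 14.5% of all genes with enough counts, and 1 was lower, beside 35.0%. The log2 ratio was 8.79 (7.57 to 10.42) for Lyve1, from 1115 counts against 5. It was 10.49 (8.01 to 15.80) for Stab2 and 7.55 (5.04 to 12.87) for Aplnr, each against a single AGM count. Mrc1 was at least 71.0-fold higher, against 0 counts. Stab1 differed by 0.27 (-0.05 to 0.60), an interval that holds 0, and Ephb4 was lower at -1.08 (-1.47 to -0.71). These last 2 calls were not steady. In run 2 alone the log2 ratio was 1.44 for Stab1 and -0.12 for Ephb4, and without the cell with the highest count of the gene Stab1 was at 0.79 and Ephb4 at -0.89.

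HE-YSA, the third pair, was 2-fold or more higher than HE-AGM in 2 of 4 genes with enough counts (13.3% of all genes) and lower in 2 (32.7%). Lyve1 was higher by 4.71 (3.43 to 6.38) and Stab2 by 7.84 (5.34 to 13.15), the latter resting on the pair of cells described above. Stab1 was lower at -2.26 (-2.92 to -1.66) and Ephb4 at -1.27 (-1.66 to -0.90). Run 2 alone gave -0.93 for Stab1 and -0.81 for Ephb4. Since HE-YSP and HE-YSA are both set against the same HE-AGM cells, these ratios are not independent of one another. The median log2 ratio of all genes tested was -0.39 for HE-YSP over HE-AGM and -0.32 for HE-YSA over HE-AGM, so that relative to this shift Ephb4 was less far below HE-AGM than its ratios alone say.

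The step from b2 to b3, early to late plexus HE, asks how the genes change as this HE matures. All 6 genes with enough counts were at least 2-fold lower in b3, beside 13.2% of all genes. The log2 ratio was -1.14 (-1.32 to -0.95) for Lyve1, -2.64 (-3.47 to -1.90) for Stab1, -2.56 (-3.46 to -1.77) for Mrc1, -1.78 (-2.68 to -0.96) for Ephb4 and -2.46 (-3.40 to -1.63) for Aplnr, with Stab2 as given above. Of 10 general endothelial markers, 6 were also at least 2-fold lower in b3, with a median log2 ratio of -1.09. The 8 blood progenitor markers with enough counts had a median log2 ratio of 1.33, beside 0.09 for all genes tested. The part of this wider shift in the values of the 7 genes was not tested.
Lower levels in b3 were seen in each run for Lyve1, where b2 and b3 were at 724 and 363 CPM in run 1, 1252 and 438 in run 2, and 810 and 441 in run 3. Stab2 in b3 was at 0 in each run, against 1093, 1145 and 362 CPM in b2. Both genes therefore kept their direction within runs. In the 2 cDNA plates with at least 4 cells of both clusters, Stab2 was at least 66.1-fold and at least 49.3-fold lower in b3. Lyve1 was at -2.16 (-2.55 to -1.78) in the first plate and at 0.27 (-0.05 to 0.59) in the second, in which Ephb4 was at 0.46 (-0.78 to 1.68). Stab1, Mrc1 and Aplnr were lower in b3 in both plates, whereas Lyve1 and Ephb4 were so in 1 plate. The second plate held E10.5 cells only, and a single b3 cell held 80 of the 143 Lyve1 counts of b3 in it.

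The ratio of b3 to b2 differed by stage for Lyve1 and Ephb4, while Stab2 was far lower in b3 at both stages. Most E9.0 and E10.5 cells of these clusters came from different cDNA plates. Stage and plate therefore cannot be told apart in these values, also inside b2. At E9.0, Lyve1 was at 1743 CPM in 10 b2 cells and 321 CPM in 6 b3 cells, a log2 ratio of -2.44 (-2.85 to -2.06). At E10.5 it was at 577 CPM in 13 b2 cells and 548 CPM in 7 b3 cells, a log2 ratio of -0.07 (-0.35 to 0.20). The lower Lyve1 level of b3 was thus a difference at E9.0 and was not detectable in the summed counts at E10.5. A single b3 cell held 80 of the 173 E10.5 counts of b3, so that the E10.5 ratio leans on it. The median E10.5 cell was at 501 CPM in b3 and 307 CPM in b2.
Ephb4 had 30 counts in b2 and 0 in b3 at E9.0, and a log2 ratio of -0.16 (-1.31 to 0.92) at E10.5. Stab2 was at least 40.4-fold lower in b3 at E9.0, where 6 of 10 b2 cells held it, and at least 114-fold lower at E10.5, where 12 of 13 b2 cells held it. Stab1 at E10.5 was at -1.55 (-2.46 to -0.73) and Mrc1 at -1.79 (-2.77 to -0.93). The 3 receptors other than Lyve1 were therefore lower in b3 at E10.5. At E9.0 Stab1 was at least 9.43-fold lower in b3, and Mrc1 had too few counts for a ratio.
Inside b2, from E9.0 to E10.5, Lyve1 was lower by a log2 ratio of -1.59 (-1.81 to -1.38) and Ephb4 by -1.44 (-2.31 to -0.60). In the same cells Stab2 was higher, by 0.79 (0.53 to 1.05), and Mrc1 was higher, by 1.13 (0.35 to 1.98). Stab1 and Aplnr were at -0.07 (-0.66 to 0.53) and -0.02 (-0.73 to 0.72). The 2 E9.5 cells of b2 were too few to place between these stages.

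In HE-YSA, of 4 genes with enough counts from a1 to a2, Stab1 was at least 2-fold lower (log2 ratio -3.86, -6.99 to -1.85), beside 11.9% of all genes, and Stab2 was higher at 2.40 (1.66 to 3.23), beside 11.6%, from 1 cell in each cluster. Lyve1 was at 0.41 (-0.30 to 1.14) and Ephb4 at -0.54 (-1.25 to 0.16). In HE-AGM, from c3 to c4, 0 of 2 genes were 2-fold lower (17.6% of all genes), with Stab1 at -0.87 (-1.33 to -0.42) and Ephb4 at -0.75 (-1.12 to -0.39). Ephb4 and Stab1 were lower in the later cluster of all 3 HE populations by their central values, but the interval of Ephb4 in HE-YSA holds 0.

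Toward blood only a few of the genes had enough counts for a ratio. From b3 to p2, Lyve1 was lower at -4.16 (-4.95 to -3.46) and Ephb4 was at -0.84 (-2.27 to 0.47), 1 of 2 genes beside 12.7% of all. From a2 to p1, 3 of 3 genes were at least 2-fold lower, beside 16.8% of all, namely Lyve1 at -1.27 (-2.32 to -0.33), Stab2 at -4.55 and Ephb4 at least 6.99-fold lower. The Stab2 value rests on 1 a2 cell. Without the highest Lyve1 cell of a2 its level there, 10.7 CPM, was below the 18.3 CPM of p1, so that the direction of Lyve1 turned. Stab1 and Mrc1, with too few counts for a ratio, were at 1.88 CPM each in a2 and at 7.62 and 6.09 CPM in p1. From c4 to c5, Stab1 at -1.42 (-2.17 to -0.71) and Ephb4 at -1.83 (-2.50 to -1.21) were both lower, 2 of 2 beside 15.8%.

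The isoform fractions are shares of a gene's summed counts. In HE-YSP, the short Lyve1-202 took 51.9% (48.9 to 54.9) of 1115 Lyve1 counts, and 54.9%, 44.1% and 57.4% in runs 1, 2 and 3. In HE-YSA it took 54.7% of 75 counts, and by stage in HE-YSP it took 50.5% at E9.0, 58.6% at E9.5 and 51.7% at E10.5. The share of the short transcript thus lay between 44.1% and 58.6% in these groups of cells.
Stab2-204, the transcript that ends after 4 exons, took 83.7% (80.8 to 86.3) of 723 Stab2 counts in HE-YSP, with 88.6%, 82.4% and 72.5% in runs 1, 2 and 3. The coding Stab2-201 took 11.3%. At E9.0 and E10.5 the share of Stab2-204 was 82.7% and 84.0%. In HE-YSA it was 91.6% of 131 counts, but 52.9% of the 17 counts left without the highest cell.
Mrc1 lies at chr2:14229392-14332057 on the plus strand. Its Mrc1-202, a retained-intron transcript of 2069 bases that ends 130 bases before the end of the coding Mrc1-201, took 71.0% (61.5 to 79.4) of 107 counts in HE-YSP, and 75.6%, 75.6% and 56.0% by run. The last exon of Mrc1-202, of 2045 bases, starts 1039 bases before the last exon of Mrc1-201 and runs into it. A partial read of the bases shared there can also be assigned to Mrc1-202, and its part was not tested. So the bulk of Stab2 and Mrc1 counts, and about as many Lyve1 counts as not, were assigned to transcripts that lack the full coding sequence.

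**Figure D4:**
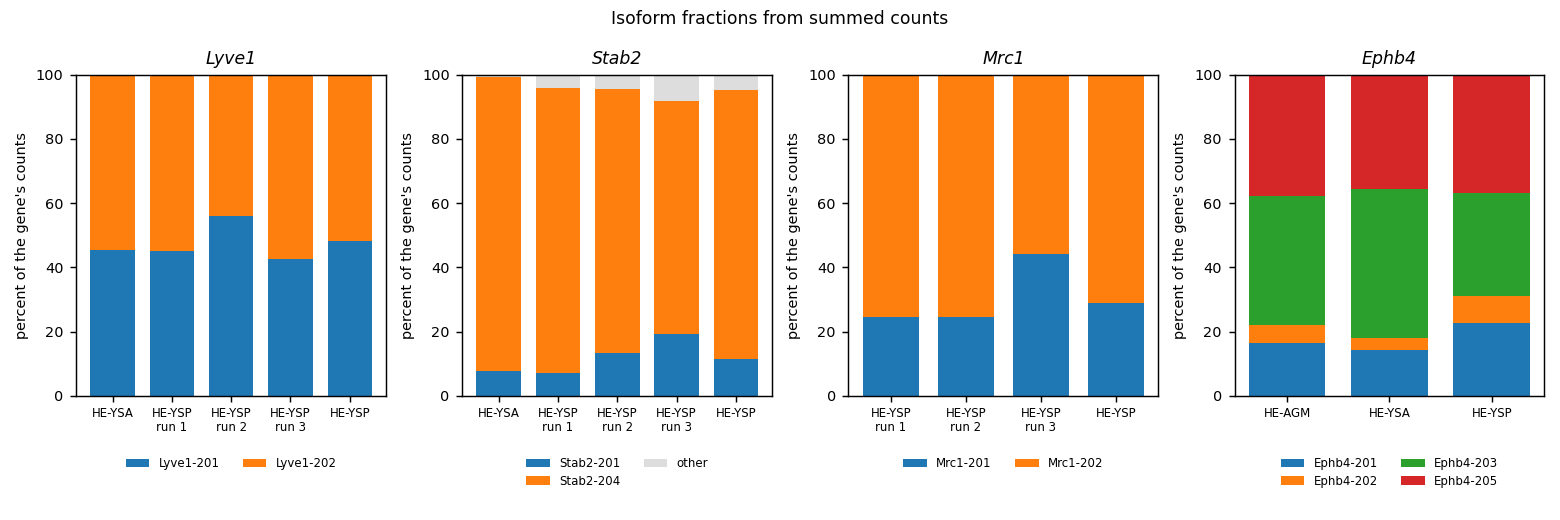
Stacked bars give each transcript's percent of its gene's summed counts (y axis) in HE populations and, for HE-YSP, in the 3 nanopore runs (x axis). Stab2-204 fills 83.7% of the HE-YSP bar, Mrc1-202 71.0% and Lyve1-202 51.9%, while Ephb4 is split over 4 coding transcripts.

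Ephb4, at chr5:137350109-137378669 on the plus strand, was led by the coding transcripts Ephb4-203 and Ephb4-205 in all 3 HE populations. Of 308 HE-AGM counts they took 40.1% and 37.9%, against 46.3% and 35.6% for HE-YSA and 32.0% and 37% for HE-YSP. Estimates not within 0.001 of a whole number, as arise where a read is divided between transcripts, held 39.0% of these HE-AGM counts. The share of Ephb4 counts on such estimates was 43.8% for HE-YSA, with 28.8% for HE-YSP. The split between the coding transcripts is therefore given as estimated, and whether it differs between populations was not tested. Aplnr, at chr2:85136225-85139923 on the plus strand, was read almost entirely as the single-exon coding Aplnr-201, with 98.4% of 94 counts in HE-YSP. The 13 transcripts of Stab1, at chr14:31139013-31168641 on the minus strand, could not be told apart. In HE-AGM 97.1% of its counts sat on transcript estimates that were not within 0.001 of a whole number, since reads that fit several transcripts are divided between them, and Stab1-201 and Stab1-204 received the same 17.5%. As divided, 70.0% of the HE-YSP counts of Stab1 sat on retained-intron transcripts. Nr2f2, at chr7:70351944-70366735 on the minus strand, had too few counts for fractions. For Stab2, 33.2% of the HE-YSP counts sat on estimates not within 0.001 of a whole number, all in 3 cells of b2. This is the share of counts on such estimates, and the number of reads divided is not known.

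The levels were set beside gene lists for HE-YSP over HE-YSA, where the median log2 ratio of all genes tested was -0.01 and 12% were at least 2-fold lower. Of 8 other venous genes 5 had enough counts and 2 were higher, with Flrt2 at 3.84, Flt4, the VEGF-C receptor, at 1.57 and Tll1 at 0.60, and with Emcn at 0.19 and Nrp2 at -0.44. Their median was 0.60, and Nr2f1 had 0 counts in all 3 HE populations. Of 27 other genes of the study's yolk sac endothelium signature, which is not independent evidence, 18 of 18 were higher, with a median of 3.27. Fcgrt, the neonatal Fc receptor, led at 6.19, with Akr1b8 at 6.02 and Npl at 5.53, and the lowest were Gpm6b at 1.19, Mbnl3 at 1.34 and Fmo1 at 1.49.
Arterial signature genes ran the other way, also from the study's own list. Of 20, 12 of 13 were lower and 0 higher, with a median of -2.94. Hey1 was at or below -5.40 against 0 counts in HE-YSP, and Gja5, an arterial gap junction gene, was at -5.35 and Adgrg6 at -4.46. Efnb2 was at -2.15, Igfbp3 at -1.54, Unc5b at -1.27 and Pdlim1 at -0.36.

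Other scavenger and endocytic receptor genes were mixed. Of 21, 9 had enough counts and 6 were higher, with a median of 1.51. Besides Fcgrt these included Cd36, the fatty acid scavenger receptor, at 5.03 or more against 0 counts, and the endocytic adaptor Dab2 at 2.60, while Scarf1 was at 0.26 and Clec4g at -0.40. Of 12 genes that make, break down or bind hyaluronan, the ligand of LYVE1 and STAB2, 4 had enough counts, 0 were higher and 1 was lower, too few to set against the shares over all genes, with Cd44 at -1.38, Hapln1 at -0.80, Cemip2 at -0.46 and Hyal2 at -0.20. Of 8 pathway neighbours of Ephb4, Aplnr and Nr2f2, 3 of 4 were lower, among them Nrp1 at -1.71, while Rasa1, a Ras regulator downstream of EPHB4, was at 0.35.

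**Figure D5:**
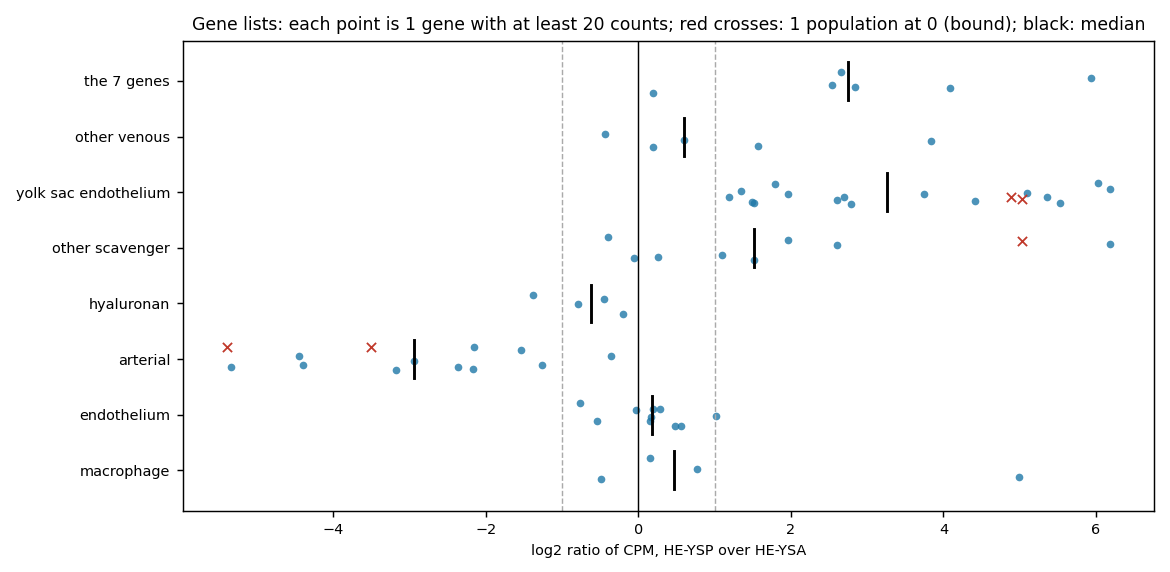
Each point is 1 gene with at least 20 counts, placed on the x axis by its log2 ratio of CPM for HE-YSP over HE-YSA, with the gene lists on the y axis, red crosses for bounds, black lines for medians and dashed lines at 2-fold. The medians are 3.27 for the yolk sac endothelium genes, 1.51 for other scavenger genes and -2.94 for the arterial genes.

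Markers of cell types that also use these receptors were measured in the same cells. Of 14 macrophage markers, 6 were above 0 in HE-YSP, and Adgre1, C1qa, C1qb, C1qc, Cd14, Cx3cr1, Fcgr1 and Ms4a7 were at 0. HE-YSP had a summed level of 490 CPM (0 to 1528 per cell), beside 110 CPM for HE-YSA (0 to 576) and 112 CPM for HE-AGM (0 to 611). The excess was Fcer1g, at 383 CPM against 12.1, the 1 of 4 macrophage markers with enough counts that was higher in HE-YSP. The lymphatic markers Ccl21a and Pdpn were at 0 in HE-YSP and Prox1 at 0.598 CPM, while Sox18, which general endothelium also expresses, was at 405 CPM. Of the 2 with enough counts, Flt4 was higher and Sox18 was under 2-fold. The 5 lymphatic markers summed to 429 CPM in HE-YSP (0 to 1687 per cell), 310 CPM in HE-YSA (0 to 943) and 178 CPM in HE-AGM (0 to 471). Of 10 general endothelial markers 1 was higher and 0 lower, with a median of 0.18, and all 10 were above 0 in HE-YSP. These are sums over all cells of a population, and the part of these markers in the levels of the 7 genes was not tested.
Of 10 blood progenitor markers 2 of 8 were higher and 1 lower, with Ptprc and Gata1 at 0 in HE-YSP. Of 8 HE signature genes of the study, 0 were higher and 4 lower, with a median of -0.98. Erythroid markers gave 0 higher and 1 lower of 3, megakaryocyte markers 1 higher (Pf4, 4.06) and 1 lower (Itgb3, -1.81) of 2, and yolk sac endoderm markers neither of 1. None of 7 mesenchyme markers had enough counts.

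Genes whose levels over the 9 clusters were most like those of a member were ranked by Pearson's r of log2(CPM + 1), over 6008 genes with at least 200 counts. The clusters share libraries, depth and normalisation, and r is given as a description. For Lyve1 these were Prdx5 at 0.973, Pde2a at 0.963, Gipc1 at 0.960, Nbdy at 0.948 and 0610010K14Rik at 0.942. For Stab2 they were Bnip2 at 0.935, Zfyve21 at 0.930 and Bet1l at 0.902, and for Mrc1 Ost4 at 0.947, Gstp-ps at 0.913 and Ap2m1 at 0.905. Stab1 came with Gm15428 at 0.965, Plxnd1 at 0.940 and Armcx3 at 0.928. Ephb4 was closest to Piezo1 at 0.982, Arap3 at 0.971 and Col4a2 at 0.967, all 3 known from endothelium. Aplnr came with Degs1 at 0.963, Gipc1 at 0.934 and an unnamed gene at 0.933. For Nr2f2, with 6 counts, the leading genes Emc4, Otub1 and Surf4 (0.952, 0.935 and 0.920) reflect a pattern near the floor.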

How the data were processed

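Smart-seq2 cDNA of 221 single cells was sequenced in 3 nanopore runs. According to the methods, reads were basecalled with Dorado and cleaned of adapters (bbduk) and of chimeras (YACRD, then porechop). The authors' alignment was to GENCODE transcripts (release 37 in the methods), by minimap2 2.26 with up to 10 alignments per read, and NanoCount gave an estimated count for each of 278369 transcripts. This deposited estimated count is raw, and 49.5% of values above 0 were below 1. The deposited TPM is the same estimate rescaled to 1000000 per cell with no length correction. R 4.3.0 and DESeq2 1.40.2 are named in the submitters' processing notes, and DESeq2-normalized values were not used here.

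The cluster in the sample labels gave each cell's group. The limit of 17595 counts follows the methods, 1 scaled median absolute deviation below the median total. Counts were summed per gene symbol and population. Intervals are exact Poisson and binomial intervals, and for ratios exact conditional binomial intervals, with estimated counts rounded. A population at 0 was given 3 counts, so that its fold is a bound. The ratio code was tested on simulated counts. The members and gene lists were chosen with earlier results of these data known. The text names the 7 genes, the 3 highest and 3 lowest genes of each list by the log2 ratio of HE-YSP over HE-YSA (at least 20 counts), Efnb2, Apln and Apela, and the genes with the most similar cluster pattern (5 for Lyve1, 3 for the others). For the smaller lists a subset of these genes is named, and markers at 0 and single cells were chosen after their values were seen. Alternatives covered the limit, weighting, size factors (DESeq2 1.42.0), coding transcripts, runs, stage, label conflicts, depth and single cells. Scripts ran under R 4.3.3 and Python 3.11.15, with matplotlib 3.10.9 for figures and pandas 2.3.3, scipy 1.17.1 and numpy 2.4.6 for the calculations.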

Additional observations from a re-analysis of the deposited data

Results flagged for a closer look

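Stab2 moved in opposite directions from the early to the late cluster of the 2 yolk sac populations. Its log2 ratio was -7.86, a bound, for b3 over b2 and 2.40 for a2 over a1. The difference between these ratios was not tested. The plexus value rests on 18 of 25 b2 cells against 0 of 24 b3 cells, and the arterial value on 1 cell in each cluster.

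Lyve1 was also present in cells that were not used. The 13 cells below the limit held 32 Lyve1 counts, all in 2 of the 3 such cells of b3, the cluster in which Lyve1 was found in 79.2% of the cells used. Of the other 6 genes, Ephb4 had 1 count in the cells below the limit and the rest had none.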

How the results depend on the processing

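No paired analysis was possible because the results come from no test. Nanopore runs, plates and stages are shared by several clusters but name no embryo, and values within them are given above, those within plates chosen after seeing the data. Under 194 alternatives for the log2 ratios of the members between HE populations, 190 kept their direction, 0 called ratios reversed, 185 kept their side of 2-fold, and 148 stayed inside the counting interval. The number of genes at least 2-fold higher in HE-YSP than in HE-YSA was 5 and stayed at 4 or 5, being 4 where Aplnr had under 20 counts and no ratio. The other counts were small and moved with single settings. The 1 gene lower in HE-YSP than in HE-AGM, Ephb4, became 0 in run 2 alone, with each cell weighted equally (log2 ratio -0.93) and without the highest cell. The 2 genes higher in HE-YSA than in HE-AGM, Lyve1 and Stab2, became 1 in run 2, 0 in run 3 and 1 with coding transcripts only. The number was also 1 without the highest cell of both populations together or of HE-YSA, the last chosen after seeing the data. In these settings the genes dropped out because they had under 20 counts and no ratio was taken. Where it was taken, the log2 ratio ran from 3.76 to 5.50 for Lyve1 and from 5.84 to 8.33 for Stab2. The 2 genes lower in HE-YSA became 1 in run 1, 0 in run 2 and 1 in cells with totals from 30000 to 60000. In that range of totals Stab1 was at 1.11 for HE-YSP over HE-AGM and Ephb4 at -0.61 for HE-YSA over HE-AGM. Why the ratios of Stab1 and Ephb4 moved was not tested, and the settings by run and by total hold fewer cells. Across settings, the log2 ratio of HE-YSP over HE-YSA ran from 3.33 to 6.01 for Lyve1, from 1.78 to 5.56 for Stab2 and from 3.23 to 6.25 for Mrc1. The share of all genes higher in HE-YSP than in HE-YSA was 18% at a limit of 1 count and 3.61% at 100 counts, and the share lower 19.1% and 4.6%. Stab2-204 took 78.1% of Stab2 in HE-YSP and 75.2% in HE-YSA when cells were weighted equally. Depth limits the low genes: at 0 counts a cluster of this size still allows about the level of 3 counts.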
